A study of Mus musculus with 11 samples.

Results

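The genes described here encode 4 secreted neurotrophic ligands, Gdnf, Ntf3, Bdnf and Ptn, and 5 receptors, Ret, Gfra1, Gfra2, Ntrk2 and Ngfr. They were chosen by symbol, with earlier results of these data known. All 9 were found among the 24421 gene symbols of both count tables. The study sequenced RNA of hindlimb muscle from mice with a tamoxifen-inducible Cre recombinase driven from the Hic1 locus and a tdTomato reporter, in order to learn what beta-catenin does in mesenchymal progenitors. Exon 3 of Ctnnb1, the beta-catenin gene, carries the degradation signal of the protein, and its removal by Cre leaves a stable beta-catenin. The WT groups have wild-type Ctnnb1, and the groups that the labels call WTlFlox have 1 allele with a floxed exon 3. Cre, reporter and tamoxifen are stated for the study as a whole, and the age of the mice was not given in the sources used here.

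Progenitors were sorted as CD45-, CD31-, Sca1+, tdTomato+ and alpha7- cells, with 3 WT and 3 WTlFlox animals. The WT animals were 72B8 and 73C3, both male, and 74A2, a female, all taken 14 days after tamoxifen. The WTlFlox animals were 74A1, a female, and 72B7, a male, at 14 days, and 74A3, a male labelled as 56 days after tamoxifen. Whole lysates of the tibialis anterior muscle came from 2 WT males, 73A5 and 73A7, and 3 WTlFlox males, 71B3, 71B4 and 71B5, all at 56 days. The gate selects reporter-positive cells, whereas the lysate holds all cells of the muscle, with and without the floxed exon removed. In the lysates, animal number series and genotype cannot be told apart, since the WT animals carry 73A numbers and the WTlFlox animals 71B numbers.

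The progenitor libraries held 13119843 to 16805238 counts each and the lysates 16892158 to 19449227. The 6 progenitor markers on the list used here made up 2.50% to 3.07% of counts in WT progenitors and 3.92% to 4.24% in WTlFlox progenitors. Of these markers, Col1a1 alone was called, from a mean of 7392 to 16560 CPM (counts relative to library size, after TMM scaling), higher by 1.16 on the log2 scale (SE 0.20, adjusted p = 0.00998, edgeR). Dcn, at 14756 and 20230 CPM, differed by 0.46 (adjusted p = 0.437, edgeR), and most of the difference in the share came from these 2 matrix genes. Pdgfra, a defining receptor of these cells, lay at 1713 and 1236 CPM in the WT and WTlFlox means. It differed by -0.47 on the log2 scale (unadjusted p = 0.029, adjusted p = 0.292, edgeR), against the direction of the summed share. Ly6a, which encodes Sca1, lay at 707 and 818 CPM, a difference of 0.21. Hic1 lay at 100.4 and 84.0 CPM, a difference of -0.26. The whole-gene count of Ctnnb1 cannot check the loss of an exon and differed by -0.26 on the log2 scale (SE 0.17) in progenitors and by -0.0037 (SE 0.15) in muscle. Axin2, a textbook target of beta-catenin signalling, was higher by 5.47 on the log2 scale in WTlFlox progenitors (SE 0.22, adjusted p = 4.4e-06 with edgeR's quasi-likelihood test and Benjamini-Hochberg adjustment). In muscle the Axin2 difference was 0.80 (SE 0.21, adjusted p = 0.216 with the same edgeR test).

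Neurotrophic ligands are secreted proteins that keep neurons alive and guide their axons, and muscle is a classical source of them for motor and sensory neurons. Gdnf binds the lipid-anchored co-receptor Gfra1, and the pair activates the receptor tyrosine kinase Ret, while Gfra2 mainly serves the related ligand neurturin. Bdnf acts through the kinase receptor TrkB, the product of Ntrk2, neurotrophin-3 from Ntf3 acts mainly through TrkC, and Ngfr encodes a receptor that binds all neurotrophins. Pleiotrophin, from Ptn, is a heparin-binding growth factor that acts on receptor phosphatases and syndecans and promotes neurite growth.

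Promoter sequences are shown for the genes whose RNA differed by genotype in progenitors, so that the start regions of genes that moved together can be read side by side. They come from RefSeq on GRCm38.p6, run 5′ to 3′ on the strand of the gene, and cover 250 bases before the start site and 50 after it. Of the 9 genes, 7 matched the promoter table, with 15 promoters in all, and Ret and Gfra2 were not matched. Each promoter was searched on both strands for the core letters bound by TCF/LEF factors, the DNA-binding partners of beta-catenin. The letters searched were CTTTGAA and 3 variants in its last bases. These are CTTTGAT, then the form that is written CTTTGTA, and finally the form that is written CTTTGTT. Capitals mark a match, and lower case marks all other bases.
Gdnf promoter 1, chr15:7809798-7810097, plus strand: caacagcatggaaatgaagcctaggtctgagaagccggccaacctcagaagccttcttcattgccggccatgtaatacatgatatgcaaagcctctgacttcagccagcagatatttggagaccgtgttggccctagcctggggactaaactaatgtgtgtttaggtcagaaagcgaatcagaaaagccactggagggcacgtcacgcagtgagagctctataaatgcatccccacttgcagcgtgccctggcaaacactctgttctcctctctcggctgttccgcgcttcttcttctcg
Gdnf promoter 2, chr15:7813477-7813776, plus strand: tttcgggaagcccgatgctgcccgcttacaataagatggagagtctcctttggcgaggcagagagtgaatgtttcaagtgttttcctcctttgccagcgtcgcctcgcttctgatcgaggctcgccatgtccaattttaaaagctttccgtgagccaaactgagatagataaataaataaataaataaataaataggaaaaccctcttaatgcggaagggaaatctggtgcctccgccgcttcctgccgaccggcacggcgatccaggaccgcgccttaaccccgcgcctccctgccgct
Ptn, chr6:36810130-36810429, minus strand: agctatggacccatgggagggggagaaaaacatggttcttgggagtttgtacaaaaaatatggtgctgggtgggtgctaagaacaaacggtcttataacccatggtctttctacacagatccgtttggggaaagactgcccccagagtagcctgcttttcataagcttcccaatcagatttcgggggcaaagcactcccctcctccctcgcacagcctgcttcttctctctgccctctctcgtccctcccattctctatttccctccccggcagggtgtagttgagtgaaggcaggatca
Ntrk2, chr13:58806319-58806618, plus strand: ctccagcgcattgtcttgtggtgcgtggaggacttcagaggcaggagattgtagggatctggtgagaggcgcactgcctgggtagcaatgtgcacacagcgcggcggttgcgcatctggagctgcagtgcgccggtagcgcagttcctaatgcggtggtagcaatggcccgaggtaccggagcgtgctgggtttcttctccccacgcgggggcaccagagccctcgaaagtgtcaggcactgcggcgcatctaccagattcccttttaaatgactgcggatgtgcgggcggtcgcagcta
Ntf3 promoter 1, chr6:126166695-126166994, minus strand: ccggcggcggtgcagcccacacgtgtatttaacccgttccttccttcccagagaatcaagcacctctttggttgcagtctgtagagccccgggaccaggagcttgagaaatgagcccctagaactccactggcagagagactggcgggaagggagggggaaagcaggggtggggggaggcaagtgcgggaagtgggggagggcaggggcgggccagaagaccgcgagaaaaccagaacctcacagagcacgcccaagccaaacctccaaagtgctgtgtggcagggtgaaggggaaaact
Ntf3 promoter 2, chr6:126164911-126165210, minus strand: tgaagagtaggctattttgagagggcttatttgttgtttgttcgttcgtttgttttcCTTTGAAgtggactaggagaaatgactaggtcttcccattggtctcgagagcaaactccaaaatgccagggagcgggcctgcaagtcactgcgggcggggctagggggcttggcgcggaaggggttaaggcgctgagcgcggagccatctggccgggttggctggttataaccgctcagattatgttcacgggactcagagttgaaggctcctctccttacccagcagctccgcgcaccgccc

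Matches were found in 2 of the 15 promoters. Ntf3 promoter 2 held CTTTGAA on the strand of the gene, starting 193 bases before the start site (position -193). Bdnf promoter 3, which is not shown, held TACAAAG, the reverse complement of a searched form, at position -172. Neither Gdnf promoter, nor the Ptn, the Ntrk2 or the first Ntf3 promoter, held these letters in this window. Of all 32851 promoters of that length in the table, 5544 (16.9%) held at least 1 match. A match is a run of letters and not evidence of binding.

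In sorted progenitors, 3 of the 9 genes rose and 2 fell with the floxed allele. Gdnf and Ptn, both ligands, and the receptor Ntrk2 were higher in WTlFlox, and the receptor Ret and the ligand Ntf3 were lower. Among all 12392 genes tested, 3.66% were called, 2.34% higher and 1.32% lower (edgeR's quasi-likelihood test, adjusted p under 0.05). The 9 genes were chosen with earlier results of these data known, so their calls are no sign of an excess over all genes. The co-receptors Gfra1 and Gfra2 and the receptor Ngfr were tested and not called, and Bdnf had too few counts to be tested. The libraries of the 2 genotypes did not overlap for the same 5 genes, 3 higher and 2 lower, where 8.73% of all genes tested were higher without overlap and 8.17% lower. Gdnf passed the filter on low counts through its WTlFlox libraries alone, so its place among the genes tested already reflects a difference. Myofibre markers, which a sort of progenitors should lack, made up 0.00175% to 0.0120% of counts in WT and 0.00181% to 0.00233% in WTlFlox progenitors, and the ranges overlapped. The 6 of 7 that could be tested lay lower in WTlFlox, by -1.15 to -2.14 on the log2 scale with a median of -1.62. Of them 0 were called by edgeR, with 6 at an unadjusted p under 0.05, and 2, Atp2a1 and Mylpf, by DESeq2. Their part in the differences below was not tested.

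**Figure D1:**
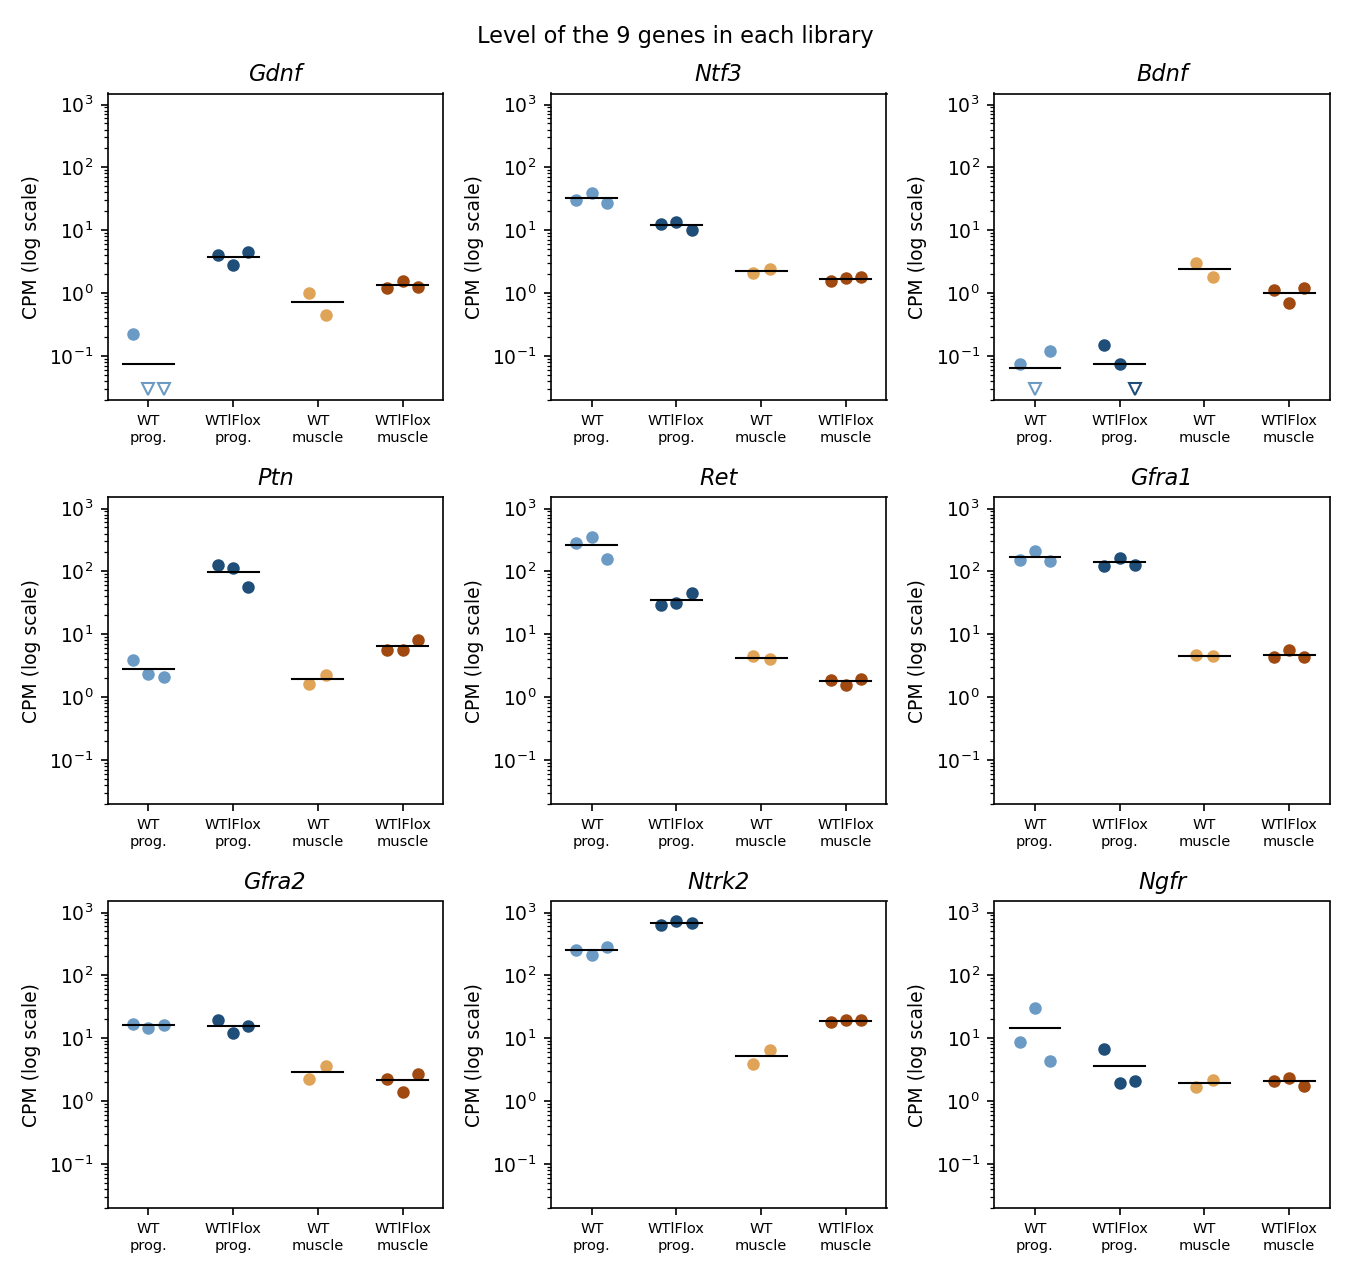
Level of each of the 9 genes in each library, as TMM-scaled CPM within its own material on a log axis, with points for libraries and a line for the group mean. Open triangles at the lower edge mark libraries with 0 counts. In the progenitors, Gdnf, Ptn and Ntrk2 lie higher in all 3 WTlFlox libraries than in any WT library, and Ret and Ntf3 lie lower.

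Gdnf (chromosome 15, 7810846 to 7837575, plus strand, on GRCm38 as for all genes below) was close to undetected in WT progenitors. The WT libraries held 3, 0 and 0 counts in 72B8, 74A2 and 73C3, or 0.226, 0 and 0 CPM, where 0 counts allow up to 0.199 CPM in 74A2 and 0.176 CPM in 73C3. The WTlFlox libraries held 54, 38 and 59 counts in 74A1, 72B7 and 74A3, or 3.96, 2.80 and 4.47 CPM. All 3 WTlFlox libraries lay above all WT libraries, and the 3 WT counts came from a single animal. The ratio of WTlFlox to WT counts, per summed library size, was 56.6 with an exact 95% interval of 18.99 to 277, which covers counting error only. The fitted difference was 5.63 on the log2 scale (SE 0.73, adjusted p = 0.0023 with edgeR's quasi-likelihood test), a value that depends on the prior count because the WT group lies at the limit of detection. Without 72B8 the WT counts are all 0 and the fitted value is 8.76.

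Ptn (chromosome 6, 36714929 to 36810220, minus strand) lay at 3.92, 2.32 and 2.12 CPM in the WT progenitor libraries 72B8, 74A2 and 73C3. In WTlFlox it lay at 128, 113 and 56.2 CPM in 74A1, 72B7 and 74A3. The lowest WTlFlox library for Ptn was 74A3, the animal labelled day 56, and it was still far above the WT range. The means were 2.78 ± 0.99 and 99.0 ± 37.9 CPM (SD, n = 3 each). The difference was 5.16 on the log2 scale (SE 0.38, adjusted p = 9.0e-05 with edgeR's quasi-likelihood test). Without 74A3, when all libraries are of day 14, 5 of the 9 genes were called in progenitors, and the Ptn difference was 5.45.

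Ntf3 (chromosome 6, 126101412 to 126166910, minus strand) moved the opposite way to Gdnf and Ptn. WT progenitors held 30.5, 38.8 and 26.7 CPM in 72B8, 74A2 and 73C3, and WTlFlox progenitors 12.6, 13.4 and 10.1 CPM in 74A1, 72B7 and 74A3. Every WTlFlox library lay below every WT library. Ntf3 fell by 1.41 on the log2 scale (SE 0.20, adjusted p = 0.0032 with edgeR's quasi-likelihood test). Bdnf (chromosome 2, 109674700 to 109727007, plus strand) was at the limit of detection in progenitors of both genotypes. It had 1, 0 and 2 counts in the WT libraries and 2, 1 and 0 in the WTlFlox libraries. The Bdnf count ratio of 1.12 had an exact 95% interval of 0.151 to 8.39, so a difference within that span was not detectable at this depth. Bdnf also overlaps exons of an antisense gene, and its reads cannot be told apart from that gene's where strand use in counting is unknown.

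Ret (chromosome 6, 118151745 to 118197718, minus strand), the signalling receptor for Gdnf, was an abundant transcript in WT progenitors. Its level was 279, 354 and 159 CPM in the WT animals 72B8, 74A2 and 73C3. In the WTlFlox animals 74A1, 72B7 and 74A3 it was 29.1, 31.5 and 45.2 CPM. The lowest WT library held more than 3 times the highest WTlFlox library. Ret fell by 2.91 on the log2 scale (SE 0.31, adjusted p = 0.00071 with edgeR's quasi-likelihood test), from a mean of 264 ± 98.4 to 35.3 ± 8.67 CPM (SD, n = 3 each). In WTlFlox progenitors the ligand Gdnf was thus higher and its signalling receptor lower than in WT.

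Gfra1 (chromosome 19, 58235604 to 58455909, minus strand), the co-receptor that presents Gdnf to Ret, did not pass the test. It lay at 152, 214 and 145 CPM in WT and at 122, 166 and 128 CPM in WTlFlox progenitors, and the ranges overlapped. The Gfra1 difference was -0.30 on the log2 scale, with a 95% interval of -0.75 to 0.16 (adjusted p = 0.732 with edgeR's quasi-likelihood test). Gfra1 overlaps exons of an antisense gene in the annotation, so the same limit on strand holds for it. Gfra2 (chromosome 14, 70890120 to 70979838, plus strand) lay at 17.1, 14.7 and 16.1 CPM in WT and at 19.7, 12.01 and 15.4 CPM in WTlFlox. Its ranges overlapped too, with a difference of -0.02 and a 95% interval of -0.48 to 0.43 (adjusted p = 0.997, edgeR).

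Ntrk2 (chromosome 13, 58806569 to 59133970, plus strand), the receptor for Bdnf, was already high in WT progenitors. It lay at 258, 212 and 278 CPM in 72B8, 74A2 and 73C3, and at 628, 740 and 679 CPM in the WTlFlox animals 74A1, 72B7 and 74A3. The groups did not overlap, and the spread within each was small beside the gap between them. Ntrk2 rose by 1.45 on the log2 scale (SE 0.18, adjusted p = 0.0020 with edgeR's quasi-likelihood test). The gene makes a full-length receptor and truncated forms without the kinase, and counts by symbol do not separate them.

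Ngfr (chromosome 11, 95568818 to 95587735, minus strand) had the widest standard error of the 8 genes tested in progenitors. It lay at 8.66, 30.2 and 4.41 CPM in the WT animals 72B8, 74A2 and 73C3, and at 6.75, 1.92 and 2.05 CPM in the WTlFlox animals 74A1, 72B7 and 74A3. In each genotype the highest library was the female, and the ranges overlapped. The difference was -2.01 on the log2 scale (SE 0.77), with an unadjusted p of 0.031 and an adjusted p of 0.304 in edgeR's quasi-likelihood test. With sex as a term, the Ngfr difference was -1.89 and the adjusted p was 0.0038, so the call depends on that term. Without the WT female 74A2 the difference was -0.87, and without the WTlFlox female 74A1 it was -2.86, neither of them called (edgeR).

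Because Ngfr is also a marker of Schwann cells, the levels of such markers in the same libraries are given beside it. The 10 glial markers made up 0.00380% to 0.00492% of counts in WT and 0.00281% to 0.00368% in WTlFlox progenitors, and of the 8 that could be tested 0 were called by edgeR, DESeq2 or limma voom, with 0 at an unadjusted p under 0.05 in edgeR. In 74A2, the library with the most Ngfr, the Schwann cell factor Sox10 had 0 counts (which allows up to 0.199 CPM), and the summed glial share was 0.00393%. That share was highest in 73C3, at 0.00492%, where Ngfr was lowest among the WT libraries. The summed share lay lower in every WTlFlox library than in any WT library, on the same side as the Ngfr difference. Sox10 itself had too few counts to be tested in progenitors. The part of Schwann cells in the Ngfr difference was not tested.

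**Figure D2:**
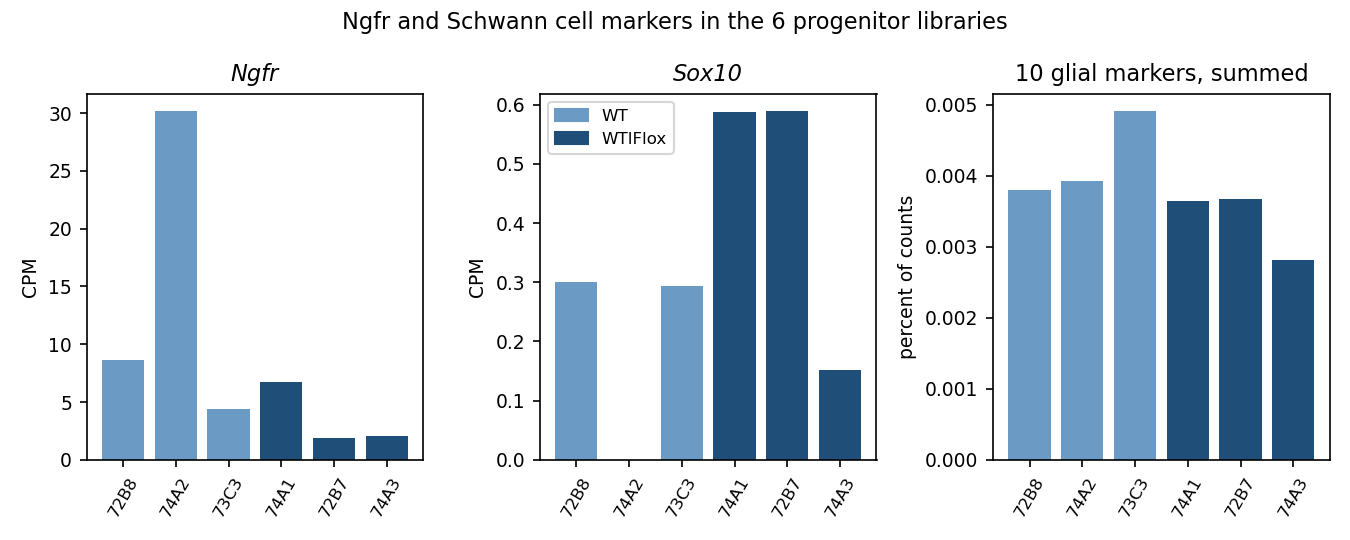
Levels of Ngfr and of the Schwann cell gene Sox10 in the 6 progenitor libraries, as bars of TMM-scaled CPM, and the summed share of the 10 glial markers in percent of counts, each on its own axis from 0. Ngfr is highest in 74A2 at 30.2 CPM, where Sox10 is at 0, and the summed share is highest in 73C3 at 0.00492%.

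In whole muscle the same 3 genes lay higher in WTlFlox, and 2 of them, Ntrk2 and Ptn, passed the test. By edgeR 0 of the 9 were called lower, with Ret and Bdnf lower at an unadjusted p under 0.05, and by DESeq2 1, Ret, was lower. Among all 12654 genes tested, 0.514% were called higher and 0.213% lower by edgeR. Libraries did not overlap for Gdnf, Ntrk2 and Ptn, which lay higher, and for Ret, Ntf3 and Bdnf, which lay lower. Such separation was common with 2 against 3 libraries, at 12.4% of all genes higher and 12.9% lower. In a lysate, fewer cells of a type and less RNA per cell cannot be told apart.

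Ntrk2 lay at 3.95 and 6.41 CPM in the WT lysates 73A5 and 73A7 and at 18.1, 19.6 and 19.2 CPM in the WTlFlox lysates 71B3, 71B4 and 71B5. It rose by 1.88 on the log2 scale (SE 0.22, adjusted p = 0.0143 with edgeR's quasi-likelihood test). Ptn lay at 1.62 and 2.24 CPM in WT and at 5.69, 5.71 and 8.18 CPM in WTlFlox lysates. It rose by 1.76 (SE 0.28, adjusted p = 0.0404, edgeR). For both genes the lowest WTlFlox lysate held more than 2 times the highest WT lysate. These calls rest on few animals: without 71B4 the adjusted p was 0.0666 for Ntrk2 and 0.110 for Ptn, without 71B5 it was 0.112 and 0.176, and without 73A5 that of Ptn was 0.0518, in edgeR. Ptn was also not called by limma voom, with 1.75 and an adjusted p of 0.0650, nor by edgeR with total counts alone (adjusted p = 0.0934). Differences kept their size, between 1.57 and 2.26 for Ntrk2 and between 1.54 and 2.01 for Ptn when each library was left out in turn.

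The share of counts from progenitor markers was also higher in WTlFlox lysates, at 0.102% to 0.113% against 0.0513% to 0.0753% in WT. Most of that share came from the matrix genes Dcn and Col1a1, which differed by 0.79 and 0.71 on the log2 scale. Pdgfra differed by 0.24, Hic1 by 0.25 and Ly6a by 0.09, and of the 6 markers 0 were called by edgeR (2 at an unadjusted p under 0.05, Dcn and Col1a1) and 1, Dcn, by DESeq2. Muscle stem cell markers made up 0.00654% to 0.00676% of counts in WT and 0.0106% to 0.0120% in WTlFlox lysates. Of the 5 tested, 1, the myogenic factor gene Myod1, rose, by 1.09 on the log2 scale (SE 0.14, adjusted p = 0.0177, edgeR). The rest ran from -0.02 to 0.28. Tendon markers made up 0.00148% to 0.00191% in WT and 0.00261% to 0.00367% in WTlFlox lysates. Of these, Scx differed by 1.29 on the log2 scale, Tnmd by 0.29 and Mkx by -0.21. By edgeR 0 were called, and by DESeq2 1, Scx. The summed shares of these 3 marker lists thus lay higher in WTlFlox without overlap. Such separation was common among single genes, as given above. The part of the number of progenitor, stem or tendon cells in the Ntrk2 and Ptn differences was not tested.

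Gdnf was present in lysates of both genotypes, at 1.02 and 0.448 CPM in 73A5 and 73A7 and at 1.21, 1.55 and 1.24 CPM in 71B3, 71B4 and 71B5. Its libraries did not overlap, but the difference of 0.85 on the log2 scale (95% interval -0.10 to 1.80) did not pass (adjusted p = 0.574, edgeR). The Gdnf difference ran from 0.38 without 73A7 to 1.56 without 73A5. Ntf3 lay at 2.09 and 2.37 CPM in WT and at 1.53, 1.76 and 1.77 CPM in WTlFlox lysates, a difference of -0.40 (95% interval -0.99 to 0.18, adjusted p = 0.701, edgeR). Both ligands thus lay on the same side as in progenitors, without a call. Bdnf, which was at the limit of detection in progenitors, had 50 and 28 counts in the WT lysates and 21, 13 and 25 in the WTlFlox lysates. These are 2.99 and 1.79 CPM against 1.11, 0.694 and 1.20 CPM, a difference of -1.25 (SE 0.36, adjusted p = 0.259, edgeR).

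Ret lay at 4.43 and 3.97 CPM in the WT lysates and at 1.90, 1.55 and 1.96 CPM in the WTlFlox lysates. The groups were well apart, but the difference of -1.22 on the log2 scale (SE 0.23) had an adjusted p of 0.0799 in edgeR's quasi-likelihood test and of 0.0394 in DESeq2. Gfra1 lay at 4.61 and 4.42 CPM in WT and at 4.37, 5.55 and 4.26 CPM in WTlFlox, a difference of 0.06 (95% interval -0.42 to 0.55). Gfra2 lay at 2.21 and 3.65 CPM in WT and at 2.27, 1.39 and 2.73 CPM in WTlFlox, a difference of -0.45 (95% interval -1.27 to 0.36). Ngfr lay at 1.68 and 2.18 CPM in WT and at 2.11, 2.35 and 1.72 CPM in WTlFlox, a difference of 0.10 (95% interval -0.55 to 0.74). The libraries of these last 3 receptors overlapped between genotypes.

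**Figure D3:**
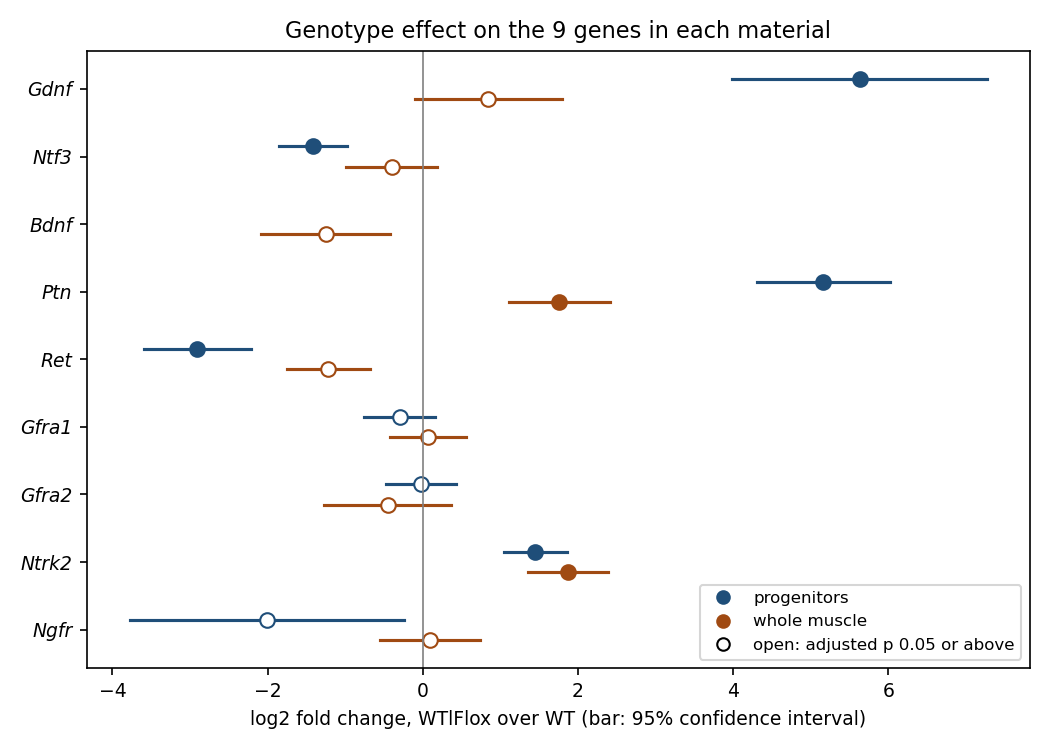
Genotype difference of each gene, WTlFlox over WT, in progenitors (blue) and whole muscle (brown), as fitted log2 fold change with its 95% confidence interval from edgeR. Filled points have an adjusted p under 0.05, and Bdnf was not tested in progenitors. Ntrk2 lies at 1.45 and 1.88, and Ptn at 5.16 and 1.76.

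Whether the genotype difference itself differed between the materials was tested in a joint fit of all 11 libraries. In that fit 2 of the 9 genes, Gdnf and Ptn, had a larger difference in progenitors than in muscle, where 0.522% of the 13781 genes tested were called in that direction and 0.247% in the other. For Ptn the excess was 3.36 on the log2 scale (SE 0.51, adjusted p = 0.0054 with edgeR's quasi-likelihood test). For Gdnf it was 4.72 (SE 0.92, adjusted p = 0.0292, edgeR), a fitted value that depends on the prior count and ran from 4.002 without 73A5 to 7.76 without 72B8. Gdnf passed the filter on low counts in this fit through groups other than WT progenitors. Ntrk2, called higher in both materials, had a difference between them of -0.48 with a 95% interval of -1.12 to 0.16 (adjusted p = 0.782, edgeR). The Ret difference was further below 0 in progenitors by -1.73 (95% interval -2.60 to -0.85, adjusted p = 0.0821 in edgeR and 0.0114 in DESeq2). Ntf3 stood at -1.05 (adjusted p = 0.192, edgeR) and Ngfr at -2.13 (adjusted p = 0.567, edgeR). The Gdnf call was lost on leaving out any of 8 libraries, with an adjusted p of up to 0.172, and the Ptn call on leaving out 73A7, with 3.13 and 0.0757 (edgeR).

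Between WT progenitors and WT muscle, 6 of the 9 genes were higher in progenitors and 2 lower. Of all genes 76.1% were called in that comparison, 38.6% higher and 37.5% lower (edgeR), and 41.2% were higher and 39.8% lower without overlap of libraries, so these counts are read only against a large general difference. Material, day and preparation change together here, and the WT libraries are those of the genotype comparisons above. On the joint scale, Ret lay at 220 CPM in WT progenitors and 5.25 CPM in WT muscle, and Ntrk2 at 211 and 6.45 CPM. The differences were 5.39 (SE 0.35) and 5.03 (SE 0.27) on the log2 scale. Gfra1 differed by 4.66 (SE 0.26), Ntf3 by 3.26 (SE 0.24), Gfra2 by 1.88 (SE 0.31) and Ngfr by 2.31 (SE 0.74, adjusted p = 0.0123, edgeR). The Ngfr call was lost without 74A2, at 1.19 and an adjusted p of 0.0598, and also without 73A5 (0.0938) or 73A7 (0.0607) in edgeR. The ligands Gdnf and Bdnf lay the other way. Bdnf passed the filter on low counts through the lysates alone, and Gdnf through groups other than WT progenitors. Their place among the genes tested thus already reflects a difference. Per summed library size, the WT muscle count was 16.6 times that of WT progenitors for Gdnf (24 against 3 counts, exact 95% interval 5.05 to 86.3) and 54.0 times for Bdnf (78 against 3 counts, 17.8 to 268).

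Ptn was the gene that did not differ detectably between the WT materials, at 2.33 CPM in progenitors and 2.41 CPM in muscle on the joint scale. The difference was -0.06, with a 95% interval of -0.94 to 0.83, and it changed sign with the scaling (0.09 with upper quartile scaling and 0.62 with total counts alone). In WTlFlox libraries the joint levels of Ptn were 80.9 CPM in progenitors and 8.19 CPM in muscle. For Gdnf the order of the materials differed between genotypes. WTlFlox progenitors held 1.83 times the Gdnf count of WTlFlox muscle per summed library size (151 against 78 counts, exact 95% interval 1.38 to 2.43, counting error only).

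Levels of different genes can be set side by side only per length of transcript, here as mean CPM per kilobase of annotated exon. In WT progenitors the order ran from Ret (39.1) and Gfra1 (31.1) to Ntf3 (18.7), Ntrk2 (12.9), Gfra2 (4.51), Ngfr (4.18), Ptn (0.811), Gdnf (0.0205) and Bdnf (0.0103). Neighbours whose libraries overlapped were Ret with Gfra1, Gfra2 with Ngfr, and Gdnf with Bdnf. In WTlFlox progenitors Ntrk2 (35.4), Ptn (28.8) and Gfra1 (25.3) came first, followed by Ntf3 (7.02), Ret (5.21), Gfra2 (4.43), Ngfr (1.04), Gdnf (1.02) and Bdnf (0.0118). There Ntrk2 overlapped Ptn, Ptn overlapped Gfra1, Ntf3 overlapped Ret, Ret overlapped Gfra2 and Ngfr overlapped Gdnf. Ret thus went from the first place to the fifth, and Ptn from the seventh to the second.

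Muscle lysates spanned a narrower range of levels per kilobase. In WT muscle Ntf3 stood first at 1.30 CPM per kilobase of exon, above Gfra2 (0.829), Gfra1 (0.824), Ret (0.621), Ptn (0.562), Ngfr (0.559), Bdnf (0.385), Ntrk2 (0.268) and Gdnf (0.1995). Neighbours whose libraries overlapped there were Gfra2 with Gfra1, Ret with Ptn, Ptn with Ngfr, Bdnf with Ntrk2, and Ntrk2 with Gdnf. In WTlFlox muscle Ptn (1.90) stood first, above Ntf3 (0.984), Ntrk2 (0.983), Gfra1 (0.863), Gfra2 (0.601), Ngfr (0.598), Gdnf (0.363), Ret (0.266) and Bdnf (0.161). In that group Ntf3 overlapped Ntrk2, Ntrk2 overlapped Gfra1 and Gfra2 overlapped Ngfr. The length used matters most for Ntrk2, whose exons cover 19292 bases in all while its longest transcript has 8744. By the longest transcript, Ntrk2 stood at 28.5 and 78.1 CPM per kilobase in WT and WTlFlox progenitors and at 0.592 and 2.17 in muscle. By that length the WTlFlox muscle libraries of Ptn and Ntrk2 overlapped.

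**Figure D4:**
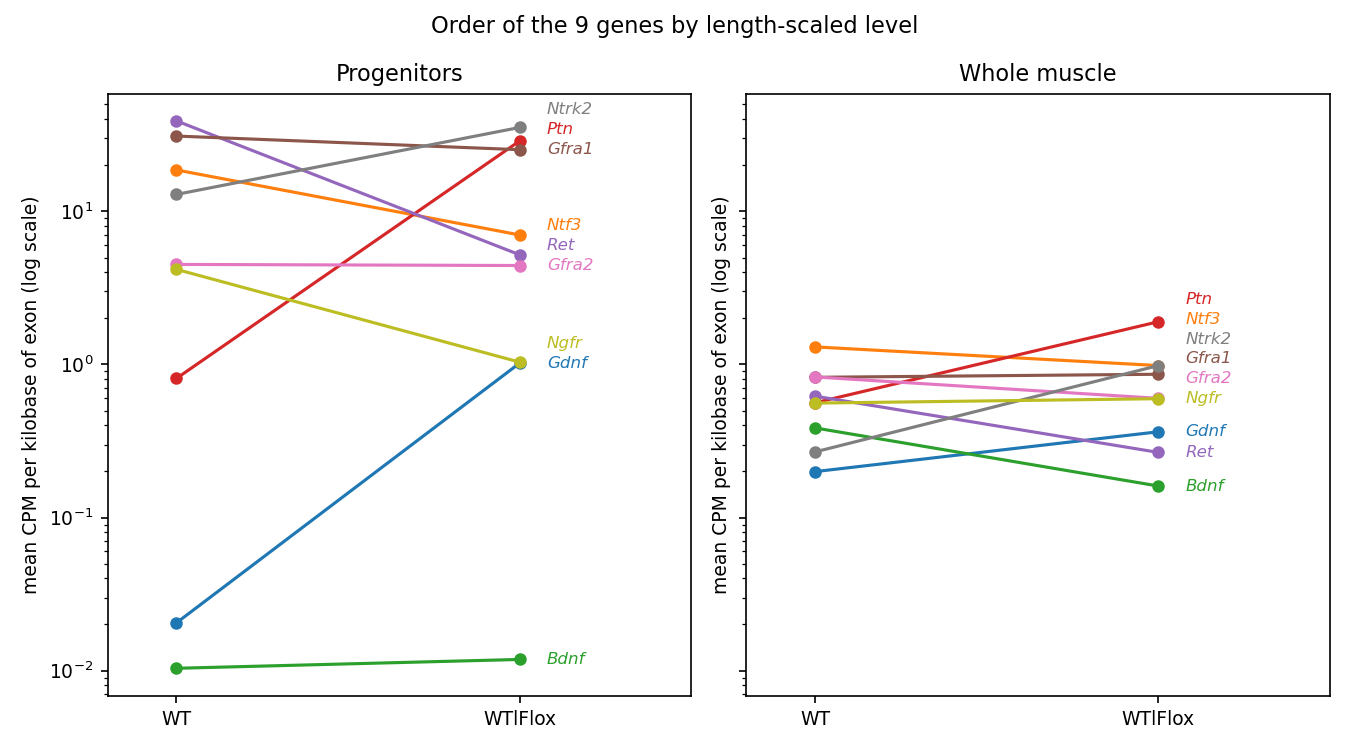
Mean level of each gene per kilobase of annotated exon (CPM per kilobase, log axis) in WT and WTlFlox, for progenitors on the left and whole muscle on the right. Lines join the means of a gene. In progenitors Ret goes from 39.1 to 5.21 and Ptn from 0.811 to 28.8, and in muscle Ptn goes from 0.562 to 1.90.

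Other genes of these pathways were taken from lists set by family and role. In progenitors Sdc3 and Pcsk6 were called lower. Of the GDNF family list (other ligands and co-receptors, 3 of 8 tested) 0 were called by edgeR, with a median of -0.06 on the log2 scale. Of the pleiotrophin and midkine list (4 of 7 tested) 1 was lower, with a median of -0.37, and of the adaptors of Ret and Trk receptors (20 of 22 tested) 0 were called, with a median of 0.06. Among processing enzymes and other neurotrophic factors (7 of 8 tested) 1 was lower, with a median of 0.03, and of the partners of Ngfr (2 of 3 tested) 0 were called, with a median of -0.07. The median over all genes tested was 0.0012. At an unadjusted p under 0.05 edgeR found 1 more gene of the GDNF family list, Gfra4, and 0 of the adaptors or partners of Ngfr, and DESeq2 called 0 genes of those 3 lists. In muscle, with 3, 5, 20, 7 and 1 members tested in that order, edgeR and DESeq2 called 0 genes of these 5 lists, and Shc4 alone had an unadjusted p under 0.05. Of the neurotrophin receptors outside the set, Ntrk3, which encodes the receptor of neurotrophin-3, lay at 8.13 and 5.49 CPM in the WT and WTlFlox progenitor means (log2 difference -0.56, adjusted p = 0.545, edgeR).

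Pcsk6, a proprotein convertase of the class that cleaves growth factor precursors, lay at 1911, 1370 and 1352 CPM in WT and at 736, 734 and 774 CPM in WTlFlox progenitors. It fell by 1.05 on the log2 scale (SE 0.20, adjusted p = 0.0189 with edgeR's quasi-likelihood test). Sdc3, a syndecan that binds pleiotrophin, lay at 39.5, 40.8 and 28.1 CPM in WT and at 14.2, 17.8 and 15.4 CPM in WTlFlox, and it fell by 1.19 (SE 0.19, adjusted p = 0.0072, edgeR). For both genes no WTlFlox library reached the WT range. In muscle the differences were -0.18 for Pcsk6 (adjusted p = 0.870) and -0.27 for Sdc3 (adjusted p = 0.626, edgeR). Ptprz1, the receptor phosphatase for pleiotrophin, had 5, 4 and 0 counts in the WT and 1, 2 and 3 in the WTlFlox progenitor libraries.

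Sort1, the most abundant gene of the neurotrophin list, encodes sortilin, which binds the precursors of neurotrophins together with the Ngfr product. It lay at 58.8, 95.6 and 50.3 CPM in WT and at 45.4, 48.9 and 33.8 CPM in WTlFlox progenitors. In muscle Sort1 lay at 94.4 and 69.3 CPM in WT and at 44.2, 52.3 and 54.3 CPM in WTlFlox. Libraries did not overlap in either material, but the differences of -0.68 (adjusted p = 0.256) and -0.70 (adjusted p = 0.179) did not pass in edgeR, while DESeq2 called the one in muscle. The most abundant genes of the pleiotrophin, GDNF family, adaptor and Ngfr partner lists differed little in progenitors. The differences were -0.04 for the lipoprotein receptor Lrp1, -0.06 for the adhesion molecule Ncam1 and 0.09 for the Ngfr adaptor Maged1. For Arhgdia, whose product binds that of Ngfr, the difference was -0.13. This does not hold for the list of processing enzymes, of which Pcsk6 fell as given above. Midkine, from Mdk, the relative of pleiotrophin, lay at 17.3 and 10.6 CPM in the WT and WTlFlox means, a difference of -0.71 (adjusted p = 0.411, edgeR).

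**Figure D5:**
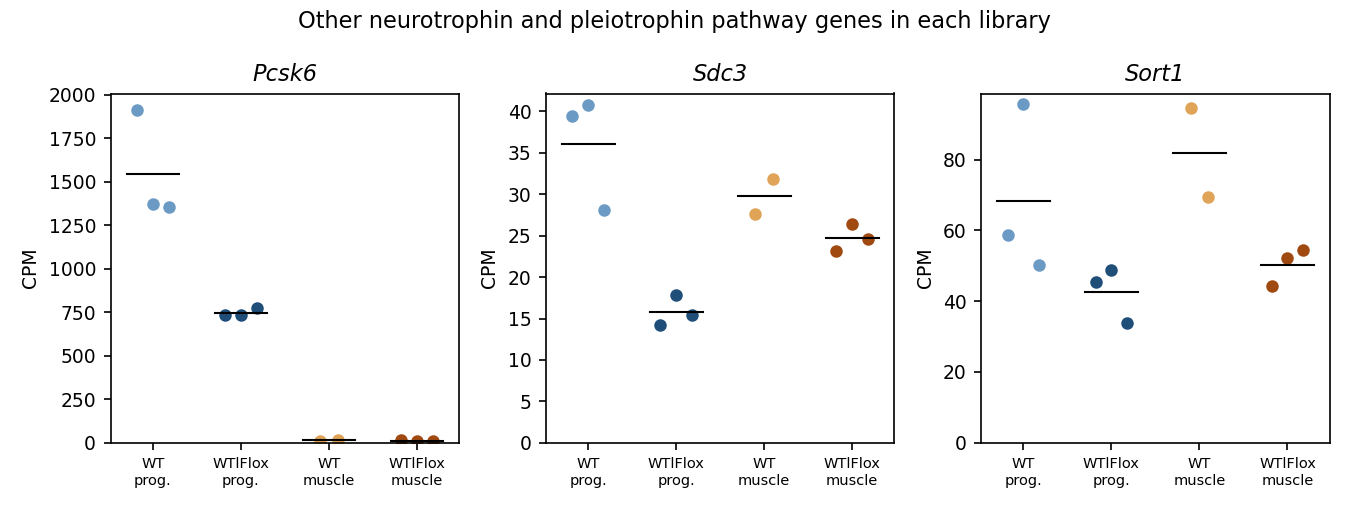
Levels of Pcsk6, Sdc3 and Sort1 in each of the 11 libraries, as TMM-scaled CPM within the material on a linear axis from 0, with points for libraries and a line for the group mean. Sdc3 lies between 14.2 and 17.8 CPM in the WTlFlox progenitors and between 28.1 and 40.8 CPM in the WT progenitors.

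Genes with a course over the 11 libraries like that of Gdnf or Ret were sought by the mean absolute difference of gene-centred log2 CPM on the joint scale, with 0.5 added. The nearest to Gdnf were Ahr, which encodes the aryl hydrocarbon receptor (mean difference 0.220), the phosphodiesterase gene Pde7b (0.290) and the Wnt ligand gene Wnt10a (0.383). Ahr had joint means of 2.002 and 15.03 CPM in WT and WTlFlox progenitors and of 5.92 and 7.57 CPM in muscle. Like Gdnf, it was lowest in WT progenitors and highest in WTlFlox progenitors, an order that the search selects for. In progenitors Ahr, Pde7b and Wnt10a differed by 2.96, 2.42 and 4.62 on the log2 scale, against 5.63 for Gdnf. Wnt10a had joint means of 0.073 and 1.92 CPM in WT and WTlFlox progenitors. Its fitted value, like that of Gdnf, thus depends on the prior count. The 0.5 added in the search narrows differences at such low levels, so genes with smaller fitted differences can lie near Gdnf. The nearest to Ret were Adamtsl3 (0.511), the laminin gene Lamb1 (0.541) and Aldh1a2, which encodes an enzyme of retinoic acid synthesis (0.542). Lamb1 had joint means of 1326 and 483 CPM in WT and WTlFlox progenitors and of 35.2 and 20.9 CPM in muscle. In progenitors Adamtsl3, Lamb1 and Aldh1a2 differed by -1.54, -1.42 and -1.33 on the log2 scale, against -2.91 for Ret.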

How the data were processed

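A stranded mRNA kit was used, with paired reads of 43 bases, per the labels' protocols. Tools named are bcl2fastq 2.20, Bowtie and STAR, with build mm10, per the submitters' processing notes. How reads were counted, and on which strand, is not given in the sources used here. Whole-number counts for each gene symbol were deposited by the authors, with progenitors and lysates in separate tables, each with a deposited sample table that gives sex and a replicate number. That sample table calls the lysates FAPs, in conflict with the labels, which were followed. Each library is a separate animal per the labels, and no pair within a group agreed within sampling noise.

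Each material was tested with edgeR 4.0.16 in R 4.3.3 (filterByExpr with a minimum count of 10, TMM scaling, robust dispersions, two-sided quasi-likelihood test, Benjamini-Hochberg adjustment over all genes tested, threshold 0.05), without covariates. The joint fit pools 11 libraries over both tables. Standard errors were taken from the F statistic. Levels are TMM-scaled CPM, computed here within each material unless called joint. Genes were matched to GENCODE coordinates and exons on GRCm38 by name (23376 of 24421 symbols). The code was tested on simulated data. Count intervals and floors (3 counts) cover counting error only.

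Alternatives were DESeq2 1.42.0, limma 3.58.1 (voom), upper quartile scaling, no filter, sex as a term, and each library left out. Total counts alone and the replicate number as a block were added after the data were seen. The 9 genes and the lists were chosen with earlier results of these data known. Genes named beside the 9 are those of the pathway lists that were called, the most abundant of each list, fixed markers, Ctnnb1, Axin2 and the 3 genes nearest in pattern to Gdnf and to Ret. Gfra4, Shc4, Ntrk3, Mdk, Ptprz1, Dcn, Col1a1, Myod1, Atp2a1 and Mylpf fall outside that rule, as do Scx, Tnmd and Mkx. All of these were named after their values were seen. Some genes of that rule, and the counts of the neurotrophin list, are not reported here.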

Additional observations from a re-analysis of the deposited data

Results flagged for a closer look

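The genotype difference of 2 genes differed between progenitors and whole muscle by a test of the difference itself (edgeR's quasi-likelihood test on all 11 libraries). For Gdnf the progenitor difference exceeded the muscle difference by 4.72 on the log2 scale (adjusted p = 0.0292), a fitted value with 3 counts over the WT progenitors. For Ptn the excess was 3.36 (adjusted p = 0.0054), and Ptn lay higher in WTlFlox in both materials. Material, day after tamoxifen and preparation cannot be told apart in this contrast.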

How the results depend on the processing

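The 5 genes called in progenitors were called under all 13 alternatives, with Ngfr added by sex as a term (-1.89, adjusted p = 0.0038, edgeR) and by the replicate block (-1.86, adjusted p = 0.0035). Replicate number 1 is the female in each genotype, so the block contains the sex term and these calls in progenitors are not independent. Of all genes, 454 were called there, against 755 by DESeq2 and 262 (without 74A3) to 483 when each library was left out. In muscle 2 of the 9 were called, against 1 by voom and 1 with total counts alone, where Ptn was lost, and 0 to 2 without each library. Of all genes 92 were called there, against 267 by DESeq2, 54 with total counts alone, 139 without the filter, 178 with the replicate block and 0 (without 71B5) to 239 (without 73A5). Without 71B5, 1023 genes had an unadjusted p under 0.05. Of the muscle calls of DESeq2 59.6% were higher, against 70.7% in edgeR. In the joint fit 2 of the 9 differed between materials, against 1 to 2 without each library. Of all genes 106 did, against 272 by DESeq2 and 54 to 114 without each library. Without 73C3, Ret was called (-1.97, adjusted p = 0.0141, edgeR) and Gdnf was not. Without the filter, Ret was called beside Gdnf and Ptn (-1.75, adjusted p = 0.0367, edgeR). Between the WT materials 7 to 8 of the 9 were called.

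Some differences near 0 changed sign without 1 library. In progenitors Gfra2 ran from -0.22 to 0.13, with 0.02 without 72B8. In muscle Ngfr ran from -0.084 to 0.29, with -0.0011 without 71B4, and Gfra1 from -0.058 to 0.14. Between the WT materials Ptn ran from -0.34 to 0.16, with 0.07 without 74A2 and 0.08 without 73C3, and it was 0.086 with upper quartile scaling and 0.62 with total counts alone. The last scaling moved the median of all genes by 0.66, relative to which Ptn was at -0.13. In muscle it moved the median by 0.12. The cause of these changes was not tested. Of 36 mean levels per kilobase, 16 moved by more than 1 SD with the longest transcript as length.

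Replicate numbers stand in the deposited sample table alone. For libraries of the same number, deviations from the group means correlated at r from -0.168 to 0.283 over 3 pairs of progenitors. The highest was for the females 74A2 and 74A1, and other progenitor pairs ran from -0.319 to 0.319. In lysates r ran from -0.529 to -0.0342 over 2 pairs. The deviations of 2 WT lysates from their mean mirror each other, so these values cannot exclude a pairing. No pairing is stated, and the block is not read as one. Depth limits Bdnf and Gdnf in progenitors and nearly all of the 9 in lysates, where most lay under 10 CPM. With 2 WT lysates, muscle calls rest on few animals.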
